A study of Mus musculus with 27 samples.

Results

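The basement membrane and integrin genes of a mouse embryonic stem cell line were measured as the cells lost Dicer, which cuts microRNA precursors. They were chosen by name among the protein-coding genes: type IV collagen genes (Col4a), laminin chain genes (Lama, Lamb and Lamc), integrin genes numbered Itga or Itgb, and Nid1, Nid2, Hspg2, Fn1, Sparc and Agrn. The rule took no expression value and gave 44 of the 38123 genes measured, namely 6 collagen IV, 11 laminin, 12 integrin alpha, 9 integrin beta and 6 other matrix genes. The cells were DTCM23/49, a male (XY) line that carries a conditional Dicer allele, grown on gelatin with serum and leukemia inhibitory factor, and the protocol names no feeder cells. Day 0 is the line before induction. At the later days the cells had been given 4-hydroxytamoxifen (4-OHT) at 800 nM to delete the RNase III domain, and Dicer-deficient colonies had been picked and expanded. Polyadenylated RNA was sequenced from whole cells of day 0 and of days 4, 8, 10 and 12, and from nuclear and cytoplasmic fractions of days 0 and 12, with 3 replicates in each of the 9 groups. The protocol names an ethanol control, but no library after day 0 is labelled as one, so loss of Dicer cannot be told apart from the drug, the time in culture or the choice of colonies. The replicates are named as such with no word on separate cultures, and a p-value here reflects only how far these libraries spread.

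A basement membrane is a thin sheet of matrix beneath epithelia, built from networks of laminin and type IV collagen that nidogen and the proteoglycan perlecan (gene Hspg2) hold together. Each laminin is a trimer of an alpha, a beta and a gamma chain, and each type IV collagen molecule winds together alpha chains that are encoded as head-to-head gene pairs. Integrins, dimers of an alpha and a beta subunit, span the cell membrane and bind laminin, collagen or fibronectin outside the cell. In the early embryo primitive endoderm and its parietal derivative are known for strong output of laminin and collagen IV, and embryonic stem cells attach through integrins of the beta 1 class.

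The targeted gene checks the labels. Dicer1 averaged 16.3 FPKM (fragments scaled to transcript length and library size) in whole cells at day 0 and fell to 8.63%, 10.5% and 11.2% of that level at days 4, 8 and 10, to 31.6% in the nucleus and to 13.6% in the cytoplasm at day 12. The whole cell libraries labelled day 12 held 89.7% of the day 0 level (exact 2-sided permutation p = 0.3, where each other group gave 0.1, the smallest that 3 against 3 allows), so they go against their label and no direction is drawn from them for loss of Dicer. FPKM sums ran from 275545 to 459892 per library, and steps between low values gave relative depths from 0.717 to 3.63, with whole cell day 4 replicate 1 set to 1. The whole cell day 0 libraries were at 3.63, 3.07 and 3.16 and all later whole cell libraries at 0.717 to 1.12. Depth and day therefore cannot be told apart in whole cell comparisons with day 0, and the part of depth in the changes of low genes was not tested. Embryonic stem cell markers such as Pou5f1, Nanog and Sox2 were all detected in each of the 9 groups, with summed levels of 10 markers between 1246 and 5163 FPKM per library. Whole cell day 4 replicate 3, nucleus day 0 replicate 3 and nucleus day 12 replicate 1 stood apart from their groups by transcript length. Their median log2 ratio to the other 2 libraries was -1.16, -1.19 and 0.88 higher for transcripts of at least 5000 bases than for those under 1500 bases, against -0.54 to 0.75 in the other 24 libraries. The members are long, with a median transcript of 5812 bases among those measured in whole cells against 2938 bases for all genes, so counts of members are given with and without these 3 libraries.

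**Figure D1:**
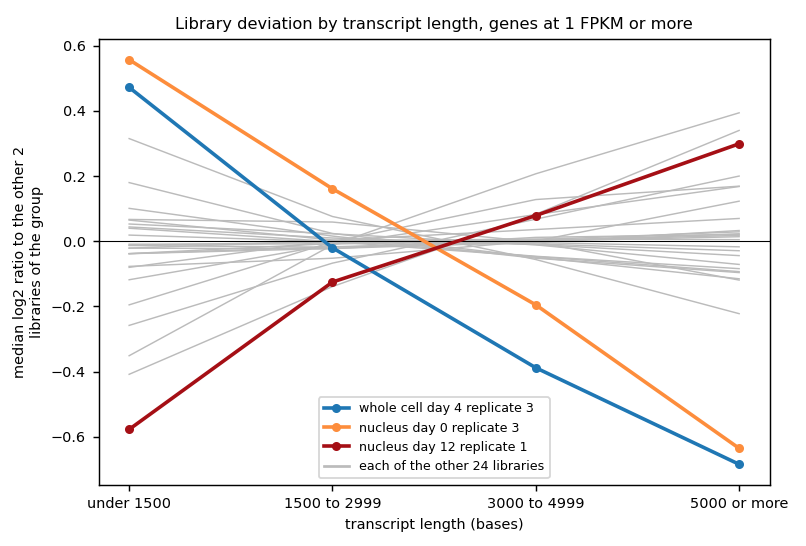
Median log2 ratio of each library to the mean of the other 2 libraries of its group (y axis) for genes at 1 FPKM or more in 4 classes of transcript length in bases (x axis). The coloured lines are the 3 libraries that stand apart, 2 of them falling and 1 rising with length, and the grey lines are the other 24 libraries.

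Because Dicer makes microRNAs, the seed matches that the members carry are shown before their levels. Mature microRNAs are from RefSeq, with the seed (bases 2 to 8) in capitals, for the miR-29 family, known for collagen targets, and for the family of miR-291a and miR-302b, abundant in mouse embryonic stem cells.
mmu-miR-29a-3p: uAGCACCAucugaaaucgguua
mmu-miR-29b-3p: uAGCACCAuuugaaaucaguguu
mmu-miR-29c-3p: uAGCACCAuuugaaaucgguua
mmu-miR-291a-3p: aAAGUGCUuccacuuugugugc
mmu-miR-302b-3p: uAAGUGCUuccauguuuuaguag
The complement of the miR-29 seed, TGGTGCT, was sought on the transcript strand of 3′ UTRs (GENCODE M21, GRCm38). Col4a1, Col4a2, Col4a5, Itga5, Itgb1 and Lamc1 are shown because they carry it and are the members whose levels are described most fully, with 25 bases around each match and the match in capitals.
Col4a1, chr8:11199759-11199783, minus strand: gccaccgtcacaacaTGGTGCTact
Col4a2, chr8:11448344-11448368, plus strand: gtgggaaggccacgtTGGTGCTtat
Col4a2, chr8:11448515-11448539, plus strand: ccaccacacccagctTGGTGCTtac
Col4a5, chrX:141688238-141688262, plus strand: cactgctcccaccaaTGGTGCTaat
Col4a5, chrX:141688519-141688543, plus strand: aagtattctttttcaTGGTGCTact
Col4a5, chrX:141688942-141688966, plus strand: taattcttattattcTGGTGCTatg
Itga5, chr15:103344752-103344776, minus strand: aacactaaccgtggaTGGTGCTgca
Itgb1, chr8:128732860-128732884, plus strand: tttttctttaattccTGGTGCTcct
Lamc1, chr1:153220066-153220090, minus strand: tattatctgacacacTGGTGCTatt
The match of the miR-291a and miR-302b seed, AGCACTT, is shown in the members Col4a2, Nid1 and Itgb3, whose levels follow.
Col4a2, chr8:11448968-11448992, plus strand: ggaggaggagatgatAGCACTTttt
Nid1, chr13:13510364-13510388, plus strand: catgcctgcaaccctAGCACTTggg
Itgb3, chr11:104669697-104669721, plus strand: gggtgcatctgatgtAGCACTTagt

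Of the 29 members that were measured in whole cells and have a 3′ UTR, 9 (31.0%) held the miR-29 match, against 14% of 12646 genes, with a median UTR of 965 bases against 976. The miR-291a and miR-302b match was in 4 of the 29 (13.8%, against 15.6% of all genes), and the let-7 match CTACCTC was in 2 (6.90%, against 9.58%). At day 10 of whole cells, 6 of the 9 members with a miR-29 match were higher than at day 0 and 10 of the 20 without one were too. Of the 4 with the miR-291a and miR-302b match, namely Col4a2, Itgb3, Lama3 and Nid1, all 4 were higher, as were 12 of the 25 without. Among all genes tested 27.7% were higher at day 10, and the share higher among all genes that carry a match was not counted. The families were chosen after the values were known, so these counts are descriptions with no test. MicroRNA levels were not measured in these libraries, and a match is not evidence of a functional site.

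Col4a1 and Col4a2 lie head to head on chromosome 8, and their RefSeq starts overlap by the 22 bases printed next, with a GC box (GGGCGG) in capitals.
Col4a1 and Col4a2 starts, chr8:11312805-11312826, plus strand: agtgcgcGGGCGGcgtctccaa
The 150 bases before the RefSeq start of Itga5 and of Nid1, 2 of the members higher at day 10, are shown with the GC box of either strand in capitals.
Itga5, chr15:103366792-103366941, minus strand: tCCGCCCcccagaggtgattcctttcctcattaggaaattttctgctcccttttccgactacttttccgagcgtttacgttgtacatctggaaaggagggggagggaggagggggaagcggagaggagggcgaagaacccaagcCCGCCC
Nid1, chr13:13437452-13437601, plus strand: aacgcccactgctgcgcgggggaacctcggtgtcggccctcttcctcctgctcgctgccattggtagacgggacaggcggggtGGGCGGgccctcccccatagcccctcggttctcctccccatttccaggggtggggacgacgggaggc
Promoter windows of equal length around the start were in the RefSeq table (GRCm38.p6) for 30 of the 44 members. The GC box, read on both strands, was in 16 of these 30 (53.3%) and in 35.9% of 27025 promoters. The sequence CCAAT was in 6 (20.0%, against 37.9%), CACCTG in 8 (26.7%, against 20.0%), the AP-1 sequence TGANTCA in 1 (3.33%, against 7.93%) and the GATA sequence AGATAA in 0 (against 11.4%).

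At day 0 the matrix was already transcribed. In whole cells 23 of the 44 members reached a mean of 1 FPKM and 14 reached 10 FPKM. Sparc, a matrix glycoprotein gene, stood at 97.4 ± 3.11 FPKM (SD, n = 3) and Fn1, the fibronectin gene, at 87.8 ± 14.4, and these 2 did not differ beyond their spread. Below them came Itgb1, the beta subunit shared by most matrix-binding integrins, at 46.5 ± 6.45, and Nid2, a nidogen gene, at 43.6 ± 3.19, again within each other's spread. Lamc1 was at 35.0 ± 3.34 and Lamb1 at 20.6 ± 0.955, the gamma and beta chains of the trimer that Lama1 (7.80 ± 1.60) and Lama5 (15.4 ± 1.296) can complete. Of the alpha subunits that pair with Itgb1 to bind laminin, Itga3 was at 36.4 ± 8.35 and Itga6 at 17.0 ± 1.88. Members without appreciable signal, under a mean of 0.5 FPKM in every whole cell group, were Col4a3, Col4a4, Col4a6, Itga2, Itga4, Itga10, Itga11, Itgb2, Itgb2l, Itgb6, Itgb8, Lama2, Lama4 and Lamc3. Itgb2l was listed at 0 in every library. The other 30 were tested in whole cells, and 34 were tested in the fractions, where Itga10, Itga11, Itgb6 and Lama4 also passed the filter.

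In whole cells more members were called higher at each day from day 4 to day 10. At day 4, 3 of 30 were higher than at day 0 and 0 lower (10%), against 6.7% of all 15991 genes called, 4.88% higher and 1.82% lower. At day 8 the count was 12 higher and 0 lower (40%), against 29.8% called, 20.2% higher and 9.62% lower. By day 10 it was 17 higher and 0 lower (56.7%), against 43.7% called, 27.7% higher and 16% lower. The members' median log2 change was 0.08, 0.43 and 0.76 at these days, while the median of all genes was 0.00, 0.06 and 0.09. The day 4 median depended on replicate 3. Without that library the members' medians were 0.386, 0.425 and 0.757, beside 0.055, 0.058 and 0.086 for all genes. For day 8 against day 4 the members' median was 0.442, and 0.094 without that library, beside 0.065 and 0.012 for all genes. Between neighbouring days, 11 members were higher and 0 lower at day 8 than at day 4 (19.9% of all genes called, 13.2% higher and 6.72% lower), and 5 were higher and 0 lower at day 10 than at day 8 (8.44% called, 5.2% higher and 3.24% lower). The comparisons with day 0 share the day 0 libraries. With protein-coding genes alone in the fit, 13 and 19 members were called at days 8 and 10, against 32.6% and 48.4% of those genes.

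These counts depend on settings and libraries. Without whole cell day 4 replicate 3 the day 4 count was 12 higher and 0 lower of 30, against 10.7% of all genes, and the counts at days 8 and 10 were 19 and 22 higher with 0 lower, against 43.9% and 56.5% of all genes called. In that fit day 8 against day 4 gave 10 higher and 2 lower, Fn1 (-0.75) and Lama1 (-0.93), against 23.1% of all genes, and day 10 against day 8 gave 13 higher and 0 lower, against 19.5%. Members newly called at day 4 in it included Nid1 (0.56 ± 0.15, adjusted p = 0.0288), Itga5 (0.44 ± 0.12, adjusted p = 0.0294), Lamb1 (0.51 ± 0.12, adjusted p = 0.0165) and Lamc1 (0.85 ± 0.14, adjusted p = 0.00161). With only days 0 and 4 in the limma fit the day 4 count was 0, with 3 members at an unadjusted p under 0.05, against 2.95% of all genes called. Day 8 against day 4, with only those days in the fit, gave 3, against 2.32% of all genes called. With quantile normalization the day 10 median over all genes went from 0.09 to -0.08, and the fit called Itga1 lower at days 4, 8 and 10, Itga7 lower at day 8 and Itgb7 lower at day 10, so the splits became 3 and 1, 11 and 2, and 16 and 2. Among all genes it moved the higher share of calls from 72.8% to 56.5%, from 67.7% to 45.9% and from 63.4% to 44.4% at the same days.

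Of the 3 members called at day 4, 2 were type IV collagen genes and the other was Sparc. Col4a1 (ENSMUSG00000031502, chromosome 8, 11198423 to 11312826, minus strand) was at 6.47, 7.10 and 7.22 FPKM at day 0, at 17.5, 15.7 and 9.72 at day 4, at 16.1, 13.3 and 18.5 at day 8, and at 22.7, 23.1 and 24.8 at day 10. All libraries of days 4, 8 and 10 were above all of day 0, and day 4 replicate 3 was the lowest of them. The log2 change was 0.95 ± 0.18 (SE, limma adjusted p = 0.00431) at day 4 and 1.69 ± 0.18 (adjusted p = 6.70e-06) at day 10. Col4a2 (chromosome 8, 11312805 to 11449287, plus strand), its partner in the alpha 1 and alpha 2 collagen, was at 3.23, 3.95 and 3.61 FPKM at day 0, at 9.5, 9.37 and 5.91 at day 4, at 8.24, 6.31 and 9.55 at day 8, and at 13.2, 13.7 and 13.0 at day 10. The groups again did not overlap with day 0, and the changes were 1.07 ± 0.17 (adjusted p = 0.00116) at day 4 and 1.75 ± 0.17 (adjusted p = 3.07e-06) at day 10. The pair share the 22 bases printed above, and whether reads there were counted by strand is not given in the sources used here.

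Neither partner differed between days 4 and 8 by the test, at 0.18 ± 0.18 for Col4a1 (adjusted p = 0.497) and -0.03 ± 0.17 for Col4a2 (adjusted p = 0.936). From day 8 to day 10 Col4a2 rose by 0.71 ± 0.17 (adjusted p = 0.0212), and Col4a1 was at 0.56 ± 0.18 (adjusted p = 0.0739). That Col4a2 call ended in 5 of the 6 fits that left out 1 library of either day. Col4a5, which encodes an X-linked chain, was a low gene, at 0.0722, 0.157 and 0.127 FPKM at day 0 and at 0.898, 0.764 and 0.768 at day 10. Its day 10 libraries lay well above day 0, with a log2 change of 1.08 ± 0.17 (adjusted p = 0.000172). Day 4 overlapped with day 0 for Col4a5, at 0.201, 0.258 and 0.0559 FPKM. Its head-to-head neighbour Col4a6 and the Col4a3 and Col4a4 pair stayed under the filter.

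**Figure D2:**
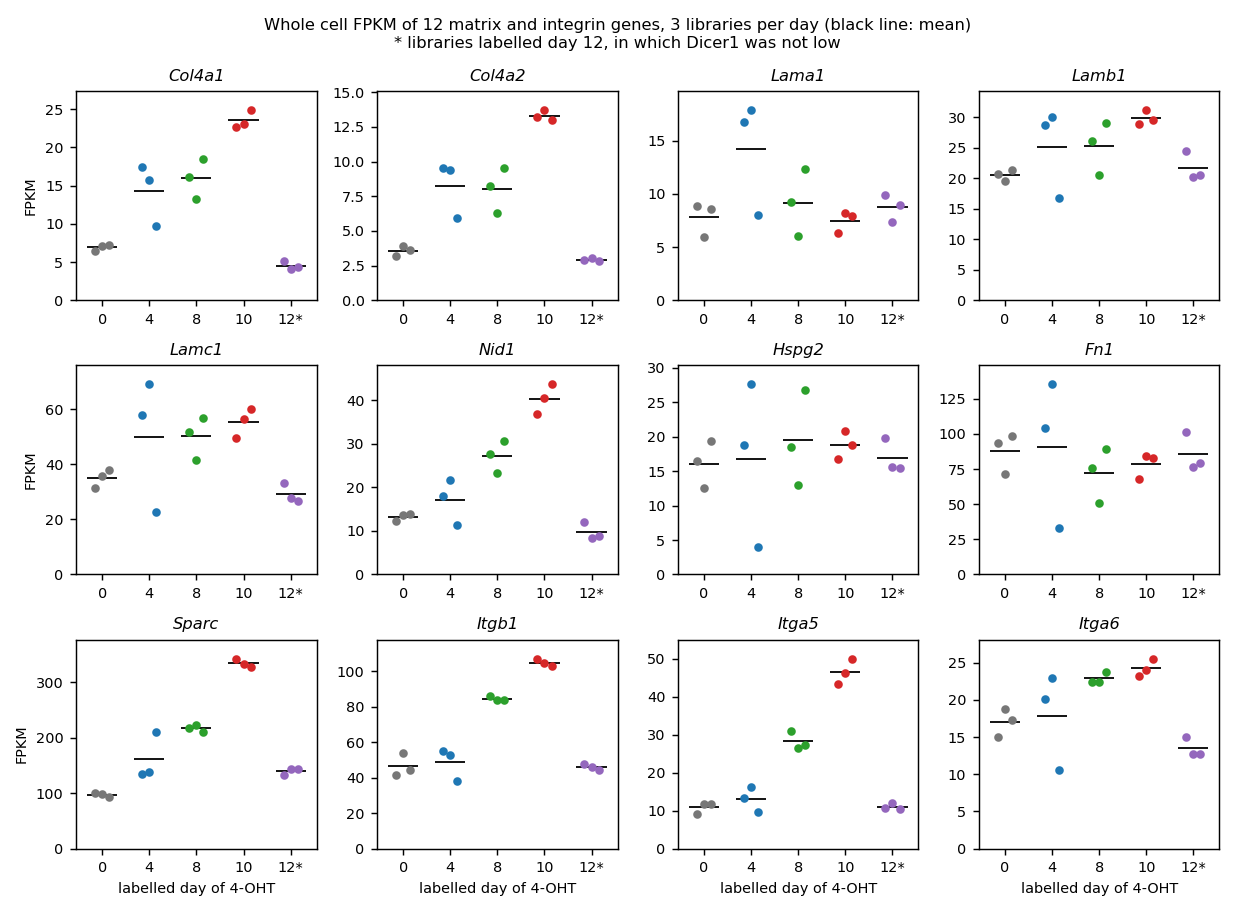
FPKM in each whole cell library (points, 3 per day) and their mean (black line) for 12 members, by labelled day. Col4a1, Col4a2, Sparc, Nid1, Itgb1 and Itga5 climb to day 10 and are lower in the libraries labelled day 12 than at day 10. In those libraries Sparc lies above every day 0 library, Col4a1 and Col4a2 lie below every one, and Itgb1 and Itga5 lie near day 0. Fn1, Hspg2 and Lama1 show no such climb and have a wide spread at day 4.

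Of 8 laminin chains tested, 5 were higher at day 10 and 0 lower, beside 27.7% of all genes higher and 16% lower. Lama3 and Lamb3 encode an alpha and a beta chain that epithelia use to anchor to the matrix. Lama3 went from 2.27, 2.25 and 2.78 FPKM at day 0 to 5.39, 5.76 and 5.88 at day 10 (1.08 ± 0.26, adjusted p = 0.00422). Lamb3 went from 0.718, 0.545 and 0.625 to 1.61, 1.18 and 1.54 (0.78 ± 0.16, adjusted p = 0.00172). The day 10 libraries of both chains lay above day 0.

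Lamb1 and Lamc1, the beta and gamma chains of laminins typical of the early embryo, stood at higher FPKM than Lama3 and Lamb3. Lamb1 went from 20.8, 19.5 and 21.4 FPKM at day 0 to 28.9, 31.2 and 29.5 at day 10, with no overlap, a change of 0.53 ± 0.18 (adjusted p = 0.0338). That call ended in each fit that left out 1 library of either day, with quantile normalization and with no filter on low values. Lamc1 was at 31.3, 35.8 and 37.8 FPKM at day 0 and at 49.4, 56.5 and 60.0 at day 10, with no overlap, and its change of 0.65 ± 0.30 did not pass (adjusted p = 0.0976). Lama5 was at 15.3, 14.2 and 16.7 FPKM at day 0 and at 25.0, 27.3 and 26.2 at day 10, again with no overlap and without passing (0.75 ± 0.41, adjusted p = 0.156). In day 4 replicate 3 Lama5 was at 5.62 FPKM beside 20.5 and 28.4 in the other replicates. Without that library in the fit Lamc1 (0.65 ± 0.13) and Lama5 (0.75 ± 0.16) were called at day 10.

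Lama1, the alpha chain of the first laminin made in the embryo, followed another course. It was at 8.83, 5.95 and 8.61 FPKM at day 0, at 16.8, 17.8 and 8.00 at day 4, at 9.19, 6.08 and 12.3 at day 8 and at 6.36, 8.23 and 7.92 at day 10. The first 2 replicates of day 4 were the highest whole cell values, and replicate 3 lay within day 0. The day 4 change was 0.76 ± 0.29 (adjusted p = 0.164), and without replicate 3 it was 1.12 ± 0.24 and passed (adjusted p = 0.00860). At day 10 it was -0.04 ± 0.29 (adjusted p = 0.929). Lamb2, the beta chain of adult basement membranes, rose from 4.51, 4.30 and 5.11 to 7.54, 7.92 and 7.76 FPKM at day 10 (0.68 ± 0.21, adjusted p = 0.0197).

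Of the linkers and matrix glycoproteins, Sparc and Nid1 rose and the rest did not pass. Sparc, which binds collagen IV, was at 99.7, 98.7 and 93.9 FPKM at day 0, at 135, 137 and 210 at day 4, at 218, 223 and 211 at day 8 and at 343, 333 and 329 at day 10. Every later group lay above day 0, and the replicate that was lowest for the collagens at day 4 was the highest for Sparc. The change was 0.69 ± 0.13 (adjusted p = 0.00481) at day 4, 0.48 without replicate 3, and 1.78 ± 0.13 (adjusted p = 3.36e-07) at day 10. Nid1, the nidogen that joins laminin to collagen IV, was at 12.3, 13.5 and 13.8 FPKM at day 0, at 18.0, 21.6 and 11.3 at day 4, at 27.7, 23.3 and 30.6 at day 8 and at 36.8, 40.5 and 43.6 at day 10. Days 8 and 10 did not overlap with day 0, and the day 10 change was 1.57 ± 0.20 (adjusted p = 3.25e-05). Its paralog Nid2 was at 40.1, 44.5 and 46.3 FPKM at day 0 and 41.7, 44.4 and 45.3 at day 10, overlapping throughout (0.01 ± 0.17, adjusted p = 0.978).

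Fibronectin and the heparan sulfate proteoglycans did not pass on any day. Fn1 was at 93.7, 71.4 and 98.3 FPKM at day 0 and at 68.2, 84.2 and 82.9 at day 10 (-0.15 ± 0.39, adjusted p = 0.782). At day 4 it stood at 104, 135 and 33.1, so the groups overlapped, and the day 4 change was -0.16 ± 0.39 with replicate 3 and 0.45 ± 0.22 without it, passing in neither fit. Hspg2, the perlecan gene, was at 16.5, 12.5 and 19.4 FPKM at day 0, at 18.8, 27.6 and 3.92 at day 4 and at 16.8, 20.8 and 18.8 at day 10 (0.23 ± 0.50, adjusted p = 0.741). Its day 10 libraries overlapped with day 0, and at day 4 its change was -0.29 ± 0.50 with replicate 3 and 0.51 ± 0.26 without it, again without passing. Agrn, the agrin gene, went from 19.7, 20.3 and 20.5 to 29.2, 30.7 and 29.96 FPKM without overlap, but the fit gave 0.56 ± 0.28 (adjusted p = 0.129), and it was called at day 10 without day 4 replicate 3.

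**Figure D3:**
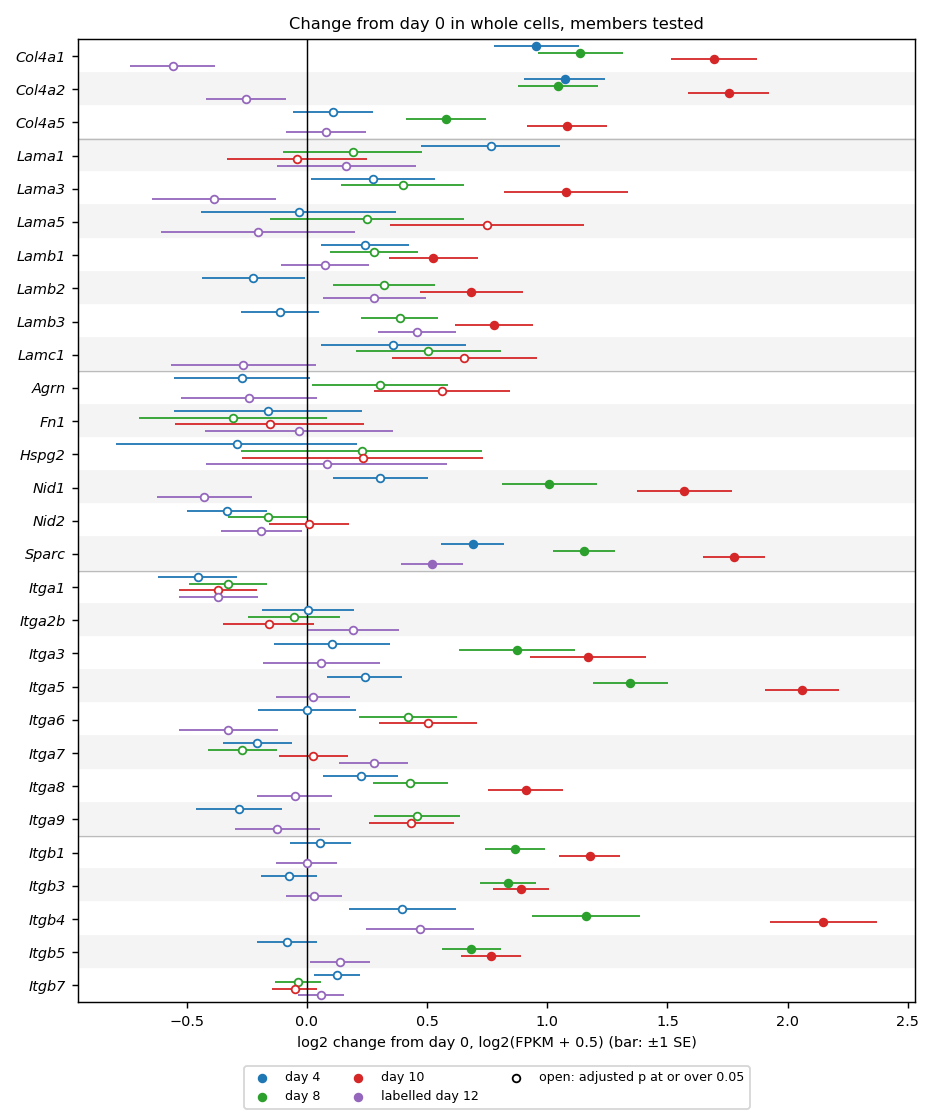
Log2 change from day 0 on the scale log2(FPKM + 0.5) with 1 SE (x axis) for members tested in whole cells (y axis, grouped by family), at days 4, 8 and 10 and in the libraries labelled day 12. Filled points passed at an adjusted p under 0.05. Of the genes drawn, Itgb4 (2.15) and Itga5 (2.06) lie farthest to the right at day 10.

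Of 8 integrin alpha subunits tested, 0 were called at day 4, 2 were higher at day 8 and 3 at day 10, beside 20.2% and 27.7% of all genes higher at the later days. Without day 4 replicate 3 Itga5 was called at day 4. Itga5 (chromosome 15, 103344286 to 103366763), the alpha subunit of the fibronectin receptor, was at 9.21, 11.6 and 11.7 FPKM at day 0, at 13.4, 16.2 and 9.60 at day 4, at 30.8, 26.5 and 27.1 at day 8 and at 43.4, 46.2 and 50 at day 10. Day 4 overlapped with day 0, whereas days 8 and 10 lay above it and apart from each other. The changes were 1.35 ± 0.15 (adjusted p = 3.15e-05) at day 8 and 2.06 ± 0.15 (adjusted p = 4.04e-07) at day 10, with a further 0.71 ± 0.15 (adjusted p = 0.0138) between them, a call that ended without day 8 replicate 2, day 8 replicate 3 or day 10 replicate 3. Itga3, a laminin receptor subunit, went from 26.8, 42.3 and 40.0 FPKM to 80.7, 81.0 and 81.1 at day 10 (1.17 ± 0.24, adjusted p = 0.00163). All day 10 libraries lay above day 0, of which replicate 1 was the lowest.

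Itga8, which pairs with Itgb1 to bind nephronectin, was low, at 0.140, 0.192 and 0.207 FPKM at day 0 and 0.817, 0.734 and 0.778 at day 10 (0.91 ± 0.16, adjusted p = 0.000398). Itga6, the alpha subunit of the main laminin receptor, was at 15.04, 18.8 and 17.3 FPKM at day 0 and at 23.3, 24.1 and 25.6 at day 10. These groups did not overlap, but the change of 0.50 ± 0.21 did not pass (adjusted p = 0.0630), and it was called without day 4 replicate 3. Itga9 (0.43 ± 0.18, adjusted p = 0.0639) also missed the threshold. The collagen receptor subunit Itga1 (-0.37 ± 0.16, adjusted p = 0.0844), the platelet subunit Itga2b (-0.16 ± 0.19, adjusted p = 0.535) and the muscle subunit Itga7 (0.03 ± 0.14, adjusted p = 0.904) did not pass either.

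Of 5 beta subunits tested, 0 were called at day 4 and 4 were higher at days 8 and 10, beside 20.2% and 27.7% of all genes higher at the later days. Itgb1 (chromosome 8, 128685654 to 128733200) was at 41.5, 53.8 and 44.2 FPKM at day 0, at 55.3, 52.9 and 37.9 at day 4, at 86.3, 83.7 and 83.9 at day 8 and at 107, 105 and 103 at day 10. Day 4 overlapped with day 0 and days 8 and 10 did not, and the day 10 change was 1.18 ± 0.13 (adjusted p = 8.12e-06). Itgb4, which pairs with Itga6 in hemidesmosomes, was at 1.46, 1.37 and 1.71 FPKM at day 0, at 4.03, 3.56 and 4.42 at day 8 and at 8.87, 8.03 and 8.33 at day 10. The 3 days were apart, with a day 10 change of 2.15 ± 0.22 (adjusted p = 6.43e-06). Itgb3 (0.89 ± 0.12, adjusted p = 4.69e-05) and Itgb5 (0.77 ± 0.12, adjusted p = 0.000256), partners of the alpha V subunit, were higher at day 10 as well. Itgb7, a leukocyte integrin subunit, was at 7.51, 6.12 and 7.01 FPKM at day 0 and at 6.40, 6.62 and 6.78 at day 10, overlapping (-0.05 ± 0.09, adjusted p = 0.698).

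Whole cells labelled day 12, with Dicer1 near its day 0 level, had 1 member that was higher than at day 0 and 0 lower (3.33%), against 13.6% of all genes called, 10.2% higher and 3.34% lower. The member was Sparc, at 133, 145 and 143 FPKM (0.52 ± 0.13, adjusted p = 0.0179), above every day 0 library and near day 4 replicates 1 and 2. This call ended with median-of-ratios scaling (0.48) and without day 0 replicate 2 or 3 or labelled day 12 replicate 2 or 3. Col4a1 stood at 5.09, 4.14 and 4.43 FPKM, below every day 0 library without passing (-0.56 ± 0.18, adjusted p = 0.0552), and Itga5 at 10.7, 11.9 and 10.4, overlapping with day 0. Without day 4 replicate 3 in the shared fit the count was 5 higher, among them Sparc, Itgb4, Lamb3 and Lamb2, and 4 lower (Nid1, Lama3, Itga6 and Col4a1). In that fit 29.2% of all genes were called, near the share of the members. Quantile normalization gave 1 higher and 2 lower, with Col4a1 and Itga1 lower, against 14.8% of all genes called. Median-of-ratios scaling gave 0 higher and 1 lower, Col4a1, against 12.9%.

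Genes that work with the members were counted from lists. Of 19 adhesion adaptor genes tested, which link integrins to actin, 15 were higher and 2 lower at day 10, with a median of 0.70. Parva, a parvin gene, was at 1.19, 1.63 and 1.79 FPKM at day 0 and 7.35, 8.86 and 8.55 at day 10 (2.11 ± 0.12, adjusted p = 3.43e-08). The talin gene Tln1 (1.34 ± 0.28) and the zyxin gene Zyx (1.18 ± 0.13) rose too, and Itgb1bp1 (-0.67 ± 0.14) and Tln2 (-0.63 ± 0.24) fell. Of 4 other integrin genes tested 3 were higher and 0 lower. They were Itgav, the alpha V subunit, which went from 1.86, 2.28 and 2.12 to 7.58, 7.93 and 7.43 FPKM (1.66 ± 0.23, adjusted p = 6.74e-05), and the integrin partners Cd151 (0.95) and Cd47 (0.57). Of 7 other laminin and matrix receptors 5 were higher, among them the laminin alpha 5 receptor gene Bcam (0.84 ± 0.12), and 1, Rpsa (-0.49 ± 0.08), was lower.

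The other components of the matrix gave counts of the same kind. Of 12 other basement membrane genes 8 were higher and 1 lower at day 10, with a median of 0.78. Tinagl1, a laminin-binding matricellular gene, went from 1.55, 1.52 and 1.45 to 11.4, 11.4 and 11.1 FPKM (2.55 ± 0.10, adjusted p = 2.05e-09). The netrin gene Ntn4 (1.57 ± 0.16) and Egfl6 (1.42 ± 0.14) rose and Frem2 (-0.94 ± 0.30) fell. Of 16 genes that modify or fold collagen and laminin, 9 were higher and 2 lower (median 0.59). The lysyl oxidase gene Lox, which crosslinks collagen, went from 0.147, 0.385 and 0.230 to 5.95, 5.18 and 4.88 FPKM (2.96 ± 0.16, adjusted p = 2.36e-08). Loxl4 (2.14 ± 0.19) and Loxl2 (1.3 ± 0.11) rose, and P4ha1 (-0.47 ± 0.09) and Plod1 (-0.45 ± 0.13), which hydroxylate collagen, fell. Of 17 matrix protease and inhibitor genes 13 were higher and 1 lower (median 0.77), among them Plaur (2.52 ± 0.09) and Mmp9 (2.01 ± 0.20), with Mmp2 lower (-0.78 ± 0.15). Of 10 provisional matrix genes 8 were higher and 0 lower (median 0.60), led by the thrombospondin gene Thbs1 (3.75 ± 0.34), the tenascin gene Tnc (2.29 ± 0.13) and Ccn2 (1.86 ± 0.19). These shares stand beside 27.7% higher and 16% lower of all genes.

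Markers of other cell types were counted beside these changes, where 4.88% of all genes were higher and 1.82% lower at day 4 and 27.7% higher and 16% lower at day 10. Of 11 primitive and parietal endoderm markers tested, 3 were higher at day 4 (Gata4, Sox17 and Dab2), and at day 10 3 were higher and 1 lower, near the share of all genes. Their summed level over 14 genes was 15.1 to 16.7 FPKM at day 0, 22.2 to 24.7 at day 4 and 23.6 to 25.4 at day 10, and none was at 0 in all libraries of these groups. Of 8 trophoblast markers 5 were higher and 1 lower at day 10, with sums of 146 to 196 FPKM at day 0 and 516 to 552 at day 10 that came mostly from the keratin genes Krt8 and Krt18. Of 4 endothelial markers 3 were higher and 0 lower, with sums of 4.68 to 5.43 and 10.0 to 10.5 FPKM. Fibroblast markers gave 3 higher and 1 lower of 6, with sums of 10.5 to 11.3 and 10.4 to 11.7 FPKM and Fap at 0 at both days. Leukocyte and platelet markers gave 2 higher and 0 lower of 3 (11.6 to 15.7 and 23.3 to 24.2 FPKM), with 3 of the 8 genes at 0 at each day. Of 10 embryonic stem cell markers 1 was higher and 2 lower at day 10, with sums of 2557 to 3195 and 2449 to 2649 FPKM. In bulk RNA more cells of a type and more RNA per cell cannot be told apart, and the part of these markers in the members' changes was not tested.

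In the fractions the members leaned to the nuclear fraction. At day 0, 26 of 34 were higher in the nucleus than in the cytoplasm and 1 lower (79.4%), against 41.8% of 17124 genes called, 25.3% higher and 16.4% lower. At day 12 the count was 24 higher and 0 lower (70.6%), against 34.1% called, 18.4% higher and 15.7% lower. The members' median log2 difference was 1.35 at day 0 and 0.98 at day 12, beside 0.12 and 0.06 for all genes. FPKM is relative within a library, so these differences say nothing of the amount of RNA in a fraction. The purity of the fractions was not tested here. A level in the nucleus is therefore the level in the nuclear fraction, and RNA inside nuclei cannot be told apart from RNA that came with them. Quantile normalization, which moved the median of all genes at day 0 from 0.12 to -0.10 and the higher share of all calls from 60.7% to 39.4%, gave 25 higher and 1 lower at day 0 and 22 higher and 1 lower (Itga9) at day 12.

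The members are long, so calls are also given by transcript length. Of genes with transcripts of at least 3000 bases 23.5% were higher in the nucleus at day 0, and of shorter genes 24.7% were, and at day 12 the shares were 18.7% and 16.4%. Of the 32 members of at least 3000 bases 25 (78.1%) were higher in the nucleus at day 0 and 22 (68.8%) at day 12. The cut of 3000 bases lies well below the members' median of 5784 bases in the fractions. The shares also include the 2 nuclear libraries that stand apart by length. The shares therefore do not set the members beside genes of like length, and the part of length in the members' nuclear levels was not tested. Without nucleus day 0 replicate 3 and nucleus day 12 replicate 1 the counts were 33 higher and 2 lower of 36 at day 0 (64% of all genes called) and 29 higher and 3 lower at day 12 (60% called).

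All 3 collagen IV genes tested and all 6 other matrix genes were higher in the nucleus on both days, beside 25.3% of all genes at day 0 and 18.4% at day 12. Col4a2 was at 28.4, 32.6 and 18.1 FPKM in the nucleus and at 2.05, 1.57 and 1.70 in the cytoplasm at day 0, a difference of 3.53 ± 0.19 (adjusted p = 8.55e-07), the largest of the 34 members. Col4a1 was at 33.7, 40.2 and 23.8 against 3.39, 3.32 and 3.40 (3.06 ± 0.17, adjusted p = 1.35e-06). No nuclear library of either gene came near a cytoplasmic one, and replicate 3 was the lowest nuclear library for both. Fn1 was at 632, 699 and 214 FPKM in the nucleus and 140, 111 and 123 in the cytoplasm (1.87 ± 0.36, adjusted p = 0.00192). At day 12 its libraries were at 691, 632 and 753 against 88.6, 85.4 and 90.9 (2.96 ± 0.36, adjusted p = 0.000179). Whole cells of day 0 held Fn1 at a mean of 87.8 FPKM, below both fractions of that day. Col4a1 (6.93) and Col4a2 (3.59) in whole cells lay between their fractions. Whole cells and fractions were fitted apart, and the reason for the Fn1 levels was not tested. Sparc was at 415, 365 and 392 against 104, 104 and 105 at day 0 (1.90 ± 0.17, adjusted p = 1.91e-05).

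**Figure D4:**
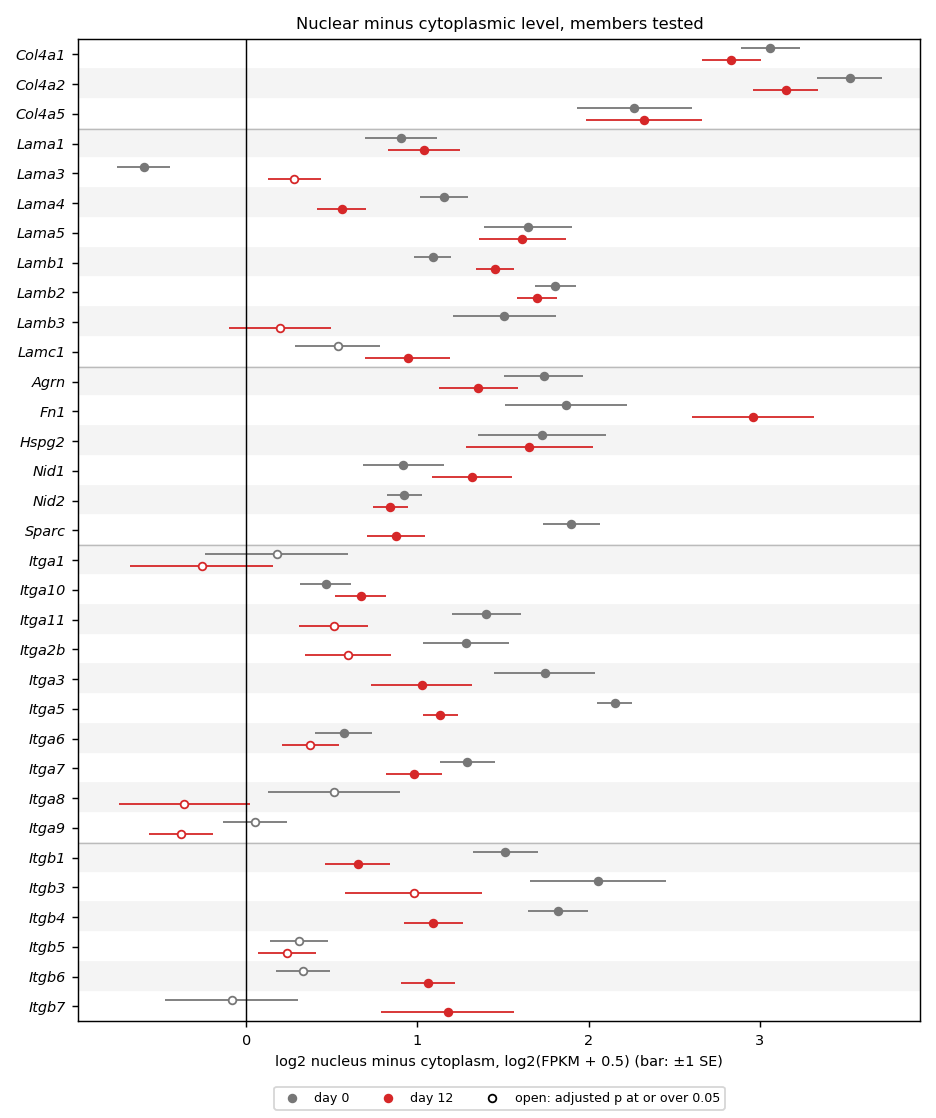
Nuclear minus cytoplasmic level on the scale log2(FPKM + 0.5) with 1 SE (x axis) for members tested in the fractions (y axis, grouped by family), at day 0 and day 12. Filled points passed at an adjusted p under 0.05. Col4a2 lies farthest to the right on both days (3.53 and 3.15), and Lama3 at day 0 is the filled point left of 0 (-0.60).

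Of 9 laminin genes 7 were higher in the nucleus at day 0 and Lama3 was lower, where 25.3% of all genes were higher and 16.4% lower. Lama3 was at 2.19, 2.50 and 1.501 FPKM in the nucleus and 3.41, 3.11 and 3.48 in the cytoplasm, without overlap (-0.60 ± 0.16, adjusted p = 0.0107). At day 12 it was at 7.98, 6.13 and 6.30 against 5.65, 5.21 and 5.55, so the nuclear libraries were then above, without passing (0.28 ± 0.16, adjusted p = 0.191). Among integrins 7 of 10 alpha and 3 of 6 beta subunits were higher in the nucleus at day 0 and none lower. Itga5 was at 44.5, 40.5 and 40.8 against 9.74, 8.42 and 8.96 FPKM (2.15 ± 0.10, adjusted p = 4.13e-07), and Itgb1 at 143, 153 and 83.7 against 40.9, 44.7 and 41.8 (1.51 ± 0.19, adjusted p = 0.000148). Itgb5, at 28.7, 24.4 and 26.8 against 21.8, 21.6 and 20.7 FPKM, did not pass (0.31 ± 0.17, adjusted p = 0.167).

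Other lists were counted in the fractions of day 0, where 25.3% of all genes were higher in the nucleus and 16.4% lower. Of 16 collagen and laminin processing genes 12 were higher in the nucleus and 0 lower, led by Loxl2 (2.50 ± 0.31). The counts were 12 and 0 of 17 for proteases and inhibitors, 11 and 0 of 14 for other basement membrane genes and 9 and 0 of 11 for provisional matrix genes, where Thbs1 (3.79 ± 0.63) led. Adhesion adaptors, which encode cytoplasmic proteins, gave 6 higher and 3 lower of 19, near the shares of all genes, with Tln2 among those lower (-0.54 ± 0.17). Embryonic stem cell markers gave 0 higher and 4 lower of 10.

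Fibroblast markers were also high in the nuclear libraries of day 0. Of 6 tested, 5 were higher than in the cytoplasm and 0 lower, and their summed level over 9 genes was 38.9 to 101 FPKM in the nucleus against 9.67 to 11.4 in the cytoplasm and 10.5 to 11.3 in whole cells. Col1a1, a fibrillar collagen gene, was at 68.8, 54.6 and 18.5 FPKM in the nucleus and at 1.499, 1.34 and 1.40 in the cytoplasm of day 0. At day 12 the sum was 10.6 to 21.2 FPKM in the nucleus and 4.98 to 5.61 in the cytoplasm. Trophoblast sums were 437 to 725 against 221 to 234 FPKM at day 0, endoderm sums 24.8 to 38.3 against 12.5 to 13.2, endothelial sums 6.49 to 8.42 against 5.01 to 5.11, and leukocyte and platelet sums 37.3 to 78.3 against 17.3 to 21.1. The part of these markers in the members' nuclear levels was not tested.

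**Figure D5:**
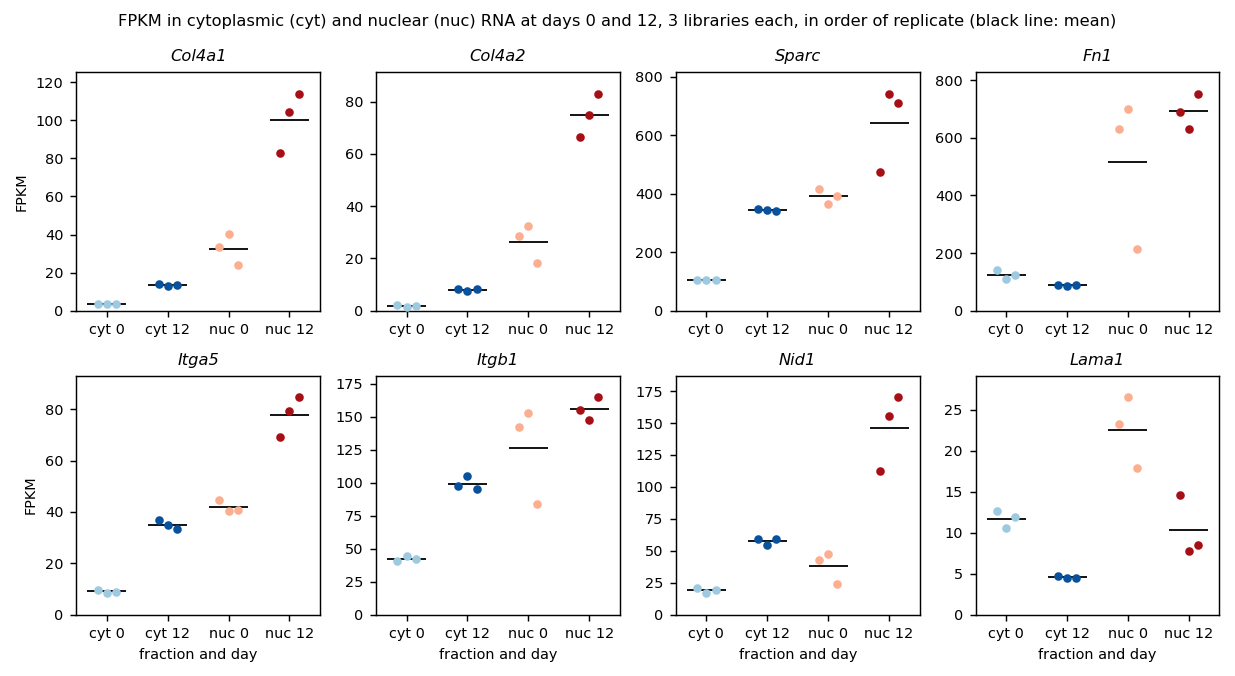
FPKM of 8 members in each cytoplasmic and nuclear library at days 0 and 12 (points, in order of replicate) with the mean (black line). Itga5, Sparc, Nid1 and both collagens are higher at day 12 in each fraction, Lama1 is lower in each, and replicate 3 of the nucleus at day 0 is low for Fn1, Itgb1 and Nid1.

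Between day 0 and day 12 the cytoplasm, where Dicer1 was low, gave 16 members higher and 1 lower of 34 (50%), against 32.6% of all genes called, 16% higher and 16.6% lower. The nucleus gave 15 higher and 6 lower (61.8%), against 36.7% called, 15.1% higher and 21.6% lower. With protein-coding genes alone the members' counts were the same, against 40.1% of those genes called in the cytoplasm and 41.6% in the nucleus. With only the 2 nuclear groups in the fit the nuclear count was 7 higher and 1 lower, against 12.5% of all genes called. Without nucleus day 0 replicate 3 and nucleus day 12 replicate 1 the cytoplasm gave 23 higher and 3 lower of 36, against 59.5% of all genes called, and the nucleus 16 higher and 10 lower, against 56.5%. The medians of the members were 0.63 in the cytoplasm and 0.48 in the nucleus, beside -0.01 and -0.10 for all genes. The nuclear median depended on the 2 libraries that stand apart. Without them the members' medians were 0.583 in the cytoplasm and 0.108 in the nucleus, beside -0.006 and -0.074 for all genes. Of 8 endoderm markers 3 were higher and 1 lower in the cytoplasm, with sums of 12.5 to 13.2 FPKM at day 0 and 32.4 to 34.3 at day 12. In the nucleus 3 were higher and 3 lower, with sums of 24.8 to 38.3 and 40.8 to 90.7 FPKM. Trophoblast markers gave 5 higher and 1 lower of 8 in the cytoplasm and 3 and 1 in the nucleus. Fibroblast markers gave 1 and 1 of 6, and 1 and 4. Embryonic stem cell markers gave 0 higher and 2 lower of 10 in the cytoplasm and 0 and 1 in the nucleus. Their cytoplasmic sums were 3184 to 3229 FPKM at day 0 and 2025 to 2151 at day 12. In the nucleus the sums were 2067 to 5163 and 1246 to 3090 FPKM. The part of these markers in the members' changes was not tested.

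In the cytoplasm Itga5 reached 36.8, 34.9 and 33.5 FPKM (1.90 ± 0.10, adjusted p = 1.48e-06), Col4a2 8.20, 7.45 and 8.21 (1.90 ± 0.19, adjusted p = 4.73e-05) and Col4a1 13.97, 13.1 and 13.5 (1.86 ± 0.17, adjusted p = 3.21e-05). Each lay apart from its 3 day 0 libraries. Itgb4, Sparc, Nid1, Itgb1 and Itga3 rose by 1.81, 1.72, 1.57, 1.21 and 1.19. Hspg2 (0.86 ± 0.37, adjusted p = 0.105), Fn1 (-0.49 ± 0.36, adjusted p = 0.337) and Nid2 (0.24 ± 0.10, adjusted p = 0.0999) did not pass.

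In the nucleus Nid1 went from 42.9, 47.3 and 23.8 to 113, 156 and 170 FPKM (1.97 ± 0.24, adjusted p = 0.000194), the largest rise among the members. Col4a1 went to 83.0, 104 and 114 FPKM (1.63 ± 0.17, adjusted p = 9.39e-05) and Col4a2 to 66.6, 74.8 and 83.1 (1.52 ± 0.19, adjusted p = 0.000234), all above day 0. Lama3 rose by 1.52 ± 0.16 (adjusted p = 7.66e-05). Lama1 fell in both fractions. It went from 23.3, 26.5 and 17.9 to 14.5, 7.75 and 8.54 FPKM in the nucleus (-1.13 ± 0.21, adjusted p = 0.00234) and from 12.7, 10.5 and 11.9 to 4.75, 4.48 and 4.44 in the cytoplasm (-1.27 ± 0.21, adjusted p = 0.00114), with no overlap in either. The other members lower in the nucleus were low genes, namely Itga2b (-1.18), Lamb3 (-0.96, with replicate 1 of day 12 within the day 0 range), Itga11 (-0.91), Lama4 (-0.69) and Itga7 (-0.61). Itgb7, higher in the nucleus by 1.12 ± 0.39 (adjusted p = 0.0438), rested on 17.7 and 17.9 FPKM in replicates 2 and 3 beside 5.11 in replicate 1 and overlapped with day 0.

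The change of the nucleus to cytoplasm ratio between the days was tested as an interaction. It was called for 2 of 34 members, both lower at day 12 (0 higher, 5.88%), against 1.33% of all genes called, 0.274% higher and 1.05% lower. For Itga5 the ratio fell by 1.02 ± 0.14 (adjusted p = 0.0114), since the cytoplasm rose more than the nucleus, where the day 12 libraries were at 69.2, 79.2 and 84.6 FPKM. Sparc (-1.03 ± 0.24, adjusted p = 0.0641) and Lama3 (0.88 ± 0.22, adjusted p = 0.0786) missed the threshold, and Col4a1 (-0.23 ± 0.25, adjusted p = 0.701) and Col4a2 (-0.38 ± 0.27, adjusted p = 0.535) did not pass. The Itga5 call ended without cytoplasm day 0 replicate 3 or cytoplasm day 12 replicate 1. Quantile normalization called Lama3 higher and Itga5 lower, 1 member in each direction.

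This count moved with the libraries that stand apart. Without nucleus day 0 replicate 3 it was 1 higher and 8 lower of 36, against 8.51% of all genes called, and without nucleus day 12 replicate 1 it was 3 higher and 6 lower of 35, against 9.89%. Without both it was 4 higher (Itgb7, Lama3, Fn1 and Itgb6) and 19 lower of 36, against 38.7% of all genes called. Itga5 was then at -0.96 ± 0.10 (adjusted p = 0.000220), and Itga3, Itgb1, Itgb4, Sparc and Agrn were among those lower. Each nuclear group held 2 libraries in that fit.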

How the data were processed

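Per the file headers, the authors deposited 1 FPKM value for each of 38123 genes in each of 27 polyadenylated RNA libraries. TopHat2 2.0.9, Cufflinks 1.3.0 and the build mm9 are listed in the submitters' processing notes, with no role given. How strand and reads with several matches were handled, and with which annotation, is not stated there. Paralogous members can therefore share reads. The 3 files labelled whole cell day 12 were written in another format and were joined by identifier. The depth in reads is unknown beyond the relative steps between low values.

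FPKM was tested as log2(FPKM + 0.5) with limma 3.58.1 (trend) in R 4.3.3, with Benjamini-Hochberg adjustment over all genes of a fit and a threshold of 0.05. A gene entered a fit if the mean of any 1 group reached 0.5 FPKM, 15991 over 15 whole cell libraries and 17124 over 12 fraction libraries. The pseudocount makes log2 changes of low genes too small. Simulated data were used to check the limma fits. Coordinates and 3′ UTRs are from GENCODE M21 on GRCm38 by gene identifier, with 1 transcript per gene by APPRIS, then CCDS, then length, while mm9 coordinates were not used. Promoters and microRNAs are from RefSeq. Named members were those called with all replicates apart, up to 8 in each direction of a comparison, apart from genes whose results are not reported here, and Col4a1, Col4a2, Lama1, Lamb1, Lamc1, Nid1, Hspg2, Fn1, Sparc, Itgb1, Itga5 and Itga6 throughout. Up to 3 called genes in each direction were named per list, and other members were named after their values were seen. The members and lists were chosen with earlier results of these data known. The alternatives changed the pseudocount (0.1 or 1), the filter (none, or a minimum mean of 1 FPKM), the scaling (quantile, or median-of-ratios), or the model (a block for replicate number, or a fit of the compared groups alone), or left out 1 library at a time. Chosen after seeing the data were fits without the libraries that stand apart, without those labelled whole cell day 12, and with protein-coding genes alone. Python 3.11.15, pandas 2.3.3 and matplotlib 3.10.9 were used for sequences and figures.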

Additional observations from a re-analysis of the deposited data

Results flagged for a closer look

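The nucleus to cytoplasm ratio of Itga5 was lower at day 12 than at day 0 (-1.02 on the log2 scale), by the test of the difference itself. Cytoplasmic levels rose more than nuclear ones, and the call ended without cytoplasm day 0 replicate 3 or cytoplasm day 12 replicate 1. Groups of 3 libraries are too small for a test of single outlying samples.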

How the results depend on the processing

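Of the 163 log2 changes of members that were followed, no called one changed sign. Over the alternatives 24 of the 163 took both signs, such as Fn1 (-0.56 to 0.45) and Hspg2 (-0.83 to 0.51) at day 4. Changes of members outside those 163 were not checked for sign. Over all alternatives 2593 values kept their side of the threshold, 91 no longer passed and 61 newly passed. With only the groups compared in the limma fit, the count of members called was 0 at day 4 (3 at an unadjusted p under 0.05), against 2.95% of all genes. It was 3 in the libraries labelled day 12 (25.5% of all genes) and 3 for day 8 against day 4 (2.32%). Day 10 against day 8 gave 11 (18.7%), and the nucleus between days gave 8 (12.5%). Without the libraries that stand apart the count was 12 at day 4 (10.7% of all genes), 19 at day 8 (43.9%) and 9 in the libraries labelled day 12 (29.2%). It was 13 for day 10 against day 8 (19.5%), 26 in the cytoplasm between days (59.5%) and 23 for the change of the ratio (38.7%). The libraries labelled day 12 gave 2 with a pseudocount of 0.1 (13.7% of all genes) and 3 with quantile normalization (14.8%), and day 10 against day 8 gave 8 with no filter (4.88%). With protein-coding genes alone the count was 3 at day 4 (3.77% of those genes), 13 at day 8 (32.6%) and 19 at day 10 (48.4%). It was 1 in the libraries labelled day 12 (11.7%), 12 for day 8 against day 4 (26.4%) and 7 for day 10 against day 8 (11.6%). Between fractions it was 27 at day 0 (43.9%) and 25 at day 12 (37.8%). It was 21 in the nucleus (41.6%) and 17 in the cytoplasm (40.1%) between days, and 3 for the ratio (2.52%). Leaving out each library in turn gave 3 to 12 at day 4, 10 to 12 at day 8, 15 to 16 at day 10, 0 to 1 in the libraries labelled day 12, 6 to 14 for day 8 against day 4, 2 to 4 for day 10 against day 8, 25 to 30 and 20 to 27 between fractions at days 0 and 12, 18 to 22 and 15 in the nucleus and cytoplasm between days, and 0 to 9 for the ratio. Where a group was left with 2 libraries the spread was pooled over the fit. The replicate number as a block gave 3, 12, 17, 1, 10, 5, 26, 24, 21, 15 and 2 members in the same order of comparisons, with the ratio last. In every comparison at least 1 same-numbered pair of libraries had a correlation of deviations under 0.1 (lowest -0.358). All 3 day 8 libraries correlated best with their own number at day 0 (0.052, 0.032 and 0.05). Between fractions at day 12, 2 nuclear libraries did (pairs at 0.151, 0.008 and 0.153), and at day 4 against day 0 the count was 0. Whether the numbers pair the samples cannot be told from these values, and the main fits used no pairing. Members under the filter, whose highest group mean was 0.355 FPKM in whole cells and 0.472 in the fractions, were not tested.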
